A study of Homo sapiens with 12 samples.

Results

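The genes described here encode 51 proteins of blood coagulation, fibrinolysis and complement. They were chosen by name from the 60666 genes listed in each library, with the serpin inhibitors of the same cascades left out of the choice. They were measured in Huh7, an established human hepatocellular carcinoma cell line, by sequencing of transcript 3′ ends. Cells were cultured for 24 h or 48 h with 25 µM Molidustat, which inhibits the prolyl hydroxylases that target hypoxia-inducible factor (HIF) α subunits for destruction, or with the solvent DMSO alone. Each of the 4 groups (DMSO 24 h, Molidustat 24 h, DMSO 48 h and Molidustat 48 h) holds 3 libraries, which the study describes as biological replicates. All groups share the same unedited line, glucose-rich DMEM, fetal calf serum and antibiotics, so the results hold for 1 tumour line cultured without the other cells of the liver.

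Coagulation is a chain of plasma proteases that ends with thrombin cutting fibrinogen to fibrin. Several of these proteases need a vitamin K-dependent carboxylation before they can bind membranes, and fibrinolysis later dissolves the clot. Complement is a second set of plasma proteases and pore-forming proteins, triggered by antibody, by bacterial sugars or by slow spontaneous activation of C3, and held back on host cells by membrane and plasma regulators. Hepatocytes secrete most of the soluble proteins of both systems. The comparisons ask whether their transcripts differed between Molidustat and DMSO at each time, and between 48 h and 24 h within each treatment.

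The libraries held 1499273 to 9179389 counts on genes, and 1 of them stood apart from the rest. In DMSO 48 h replicate 2, the shallowest library, the share of reads outside any annotated feature was 50.4%, while the remaining 11 libraries had 17.1 to 25.6%. Across all genes its log values correlated with those of the others at 0.731 to 0.799, while the other 11 correlated with each other at 0.880 to 0.966. A count was present for 29 of the 51 genes in that library and for 36 to 44 in each of the others. Counts of called genes at 48 h are therefore given with all 12 libraries and without this one, as are the values of the genes that it bears on most. Values are CPM, read counts scaled to a common library size after TMM normalization, and means are given ± SD with n = 3. The TMM factor of DMSO 48 h replicate 2 was 0.629 and those of the other 11 were 1.01 to 1.08. A lower factor raises every CPM of a library. A gene was called when the Benjamini-Hochberg adjusted p of edgeR's quasi-likelihood test, over all genes tested, was under 0.05 and its log2 fold change was beyond 1.

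The label of a liver cell line was checked against marker genes. All 8 hepatocyte markers passed the filter on low counts. Of the 5 endothelial markers VWF, TEK and CLEC4M had no count in any library, CDH5 had 1 count in 1 library, and PECAM1 passed the filter with 0 to 29 counts a library (at most 6.45 CPM). BNIP3, a mitophagy receptor and HIF target used as a check of treatment, stood at 158 ± 49.0 CPM in DMSO and 1111 ± 129 CPM in Molidustat at 24 h, and at 178 ± 26.9 and 1144 ± 52.0 CPM at 48 h. It was called at both times in edgeR (adjusted p = 0.000977 and 0.00149).

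Of the 51 genes, 38 passed the filter with all libraries and 40 without DMSO 48 h replicate 2, PLAU and C8B being the additions. A count was present in every library for 25 genes, and 22 had at least 10 counts in each. No library held a count of F9 (coagulation factor IX), C6 (a subunit of the membrane attack complex), C4A or C4B. C4A and C4B are near-identical copies, and reads that align equally well to both were not counted for either. The other 9 genes below the filter (KLKB1, HRG, PLG, PLAT, PLAU, MASP2, C8B, C8G and C9) never exceeded 28 counts in a library. Plasminogen (PLG) and tissue plasminogen activator (PLAT) were thus too low to compare at this depth.

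With all 12 libraries, none of the 51 genes was called at either time, in a comparison that called 33 higher (0.231% of 14274 genes) and 0 lower at 24 h, and 30 higher (0.21%) and 3 lower (0.021%) at 48 h. At an unadjusted p under 0.05, 7 were higher and 0 lower at 24 h, where 3.73% and 1.52% of all genes tested were, and 9 were higher and 1 lower at 48 h, where 4.53% and 8.81% were. Without DMSO 48 h replicate 2, VTN was called higher at both times and VKORC1 at 48 h, and none of the 51 was called lower. That fit called 0.728% of 15253 genes higher and 0.0328% lower at 24 h, and 0.315% higher and 0.0328% lower at 48 h. At an unadjusted p under 0.05 it placed 9 of the genes higher and 0 lower at 24 h, against 6.19% and 2.85% of all genes, and 10 higher and 0 lower at 48 h, against 3.68% and 2.92%. DESeq2 on all 12 libraries called VTN higher at 24 h, and VTN, VKORC1, MASP1, C3 and C4BPB higher at 48 h, where it called 0.454% of 28430 genes higher and 0.0422% lower at 24 h, and 0.609% higher and 0.623% lower at 48 h. On the 11 other libraries DESeq2 called VTN and F13B higher at 24 h and VTN, VKORC1 and MASP1 higher at 48 h, where it called 0.745% of 28199 genes higher and 0.103% lower at 24 h, and 0.535% higher and 0.0851% lower at 48 h.

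The genes that passed the filter lay mostly above zero. The filter asks for enough counts in 3 libraries of any group, so a gene low in DMSO could pass through its Molidustat libraries. Genes such as F13B and C1R, with 0 counts in all DMSO 24 h libraries, are thereby favoured to lie above zero. They are included in the numbers below, and the same filter was used for all genes tested. At 24 h, 26 of 38 had a positive log2 fold change with a median of 0.32, where the median of all 14274 genes was 0.02. At 48 h, 32 of 38 were positive with a median of 0.80, where that of all genes was 0.01. Without DMSO 48 h replicate 2, 34 of 40 were positive at 48 h and the median was 0.67. In 17 of the 38 genes every Molidustat 48 h library lay above every DMSO 48 h library, and in 0 below (9.96% and 8.02% of all genes tested). These numbers without DMSO 48 h replicate 2 were 21 and 0 of 40 (13.3% and 15%). At 24 h these numbers were 8 and 1 (7.26% and 5.02%). The 51 genes summed to 4548 to 4586 CPM in the DMSO 24 h libraries, 4981.5 to 6259 in Molidustat 24 h, 5223 to 6830 in DMSO 48 h and 7096.5 to 7984 in Molidustat 48 h. The sum of 6830 is that of DMSO 48 h replicate 2, in which TFPI alone gave 3539.9 CPM, and the other DMSO 48 h libraries stood at 5223 and 5330.

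**Figure D1:**
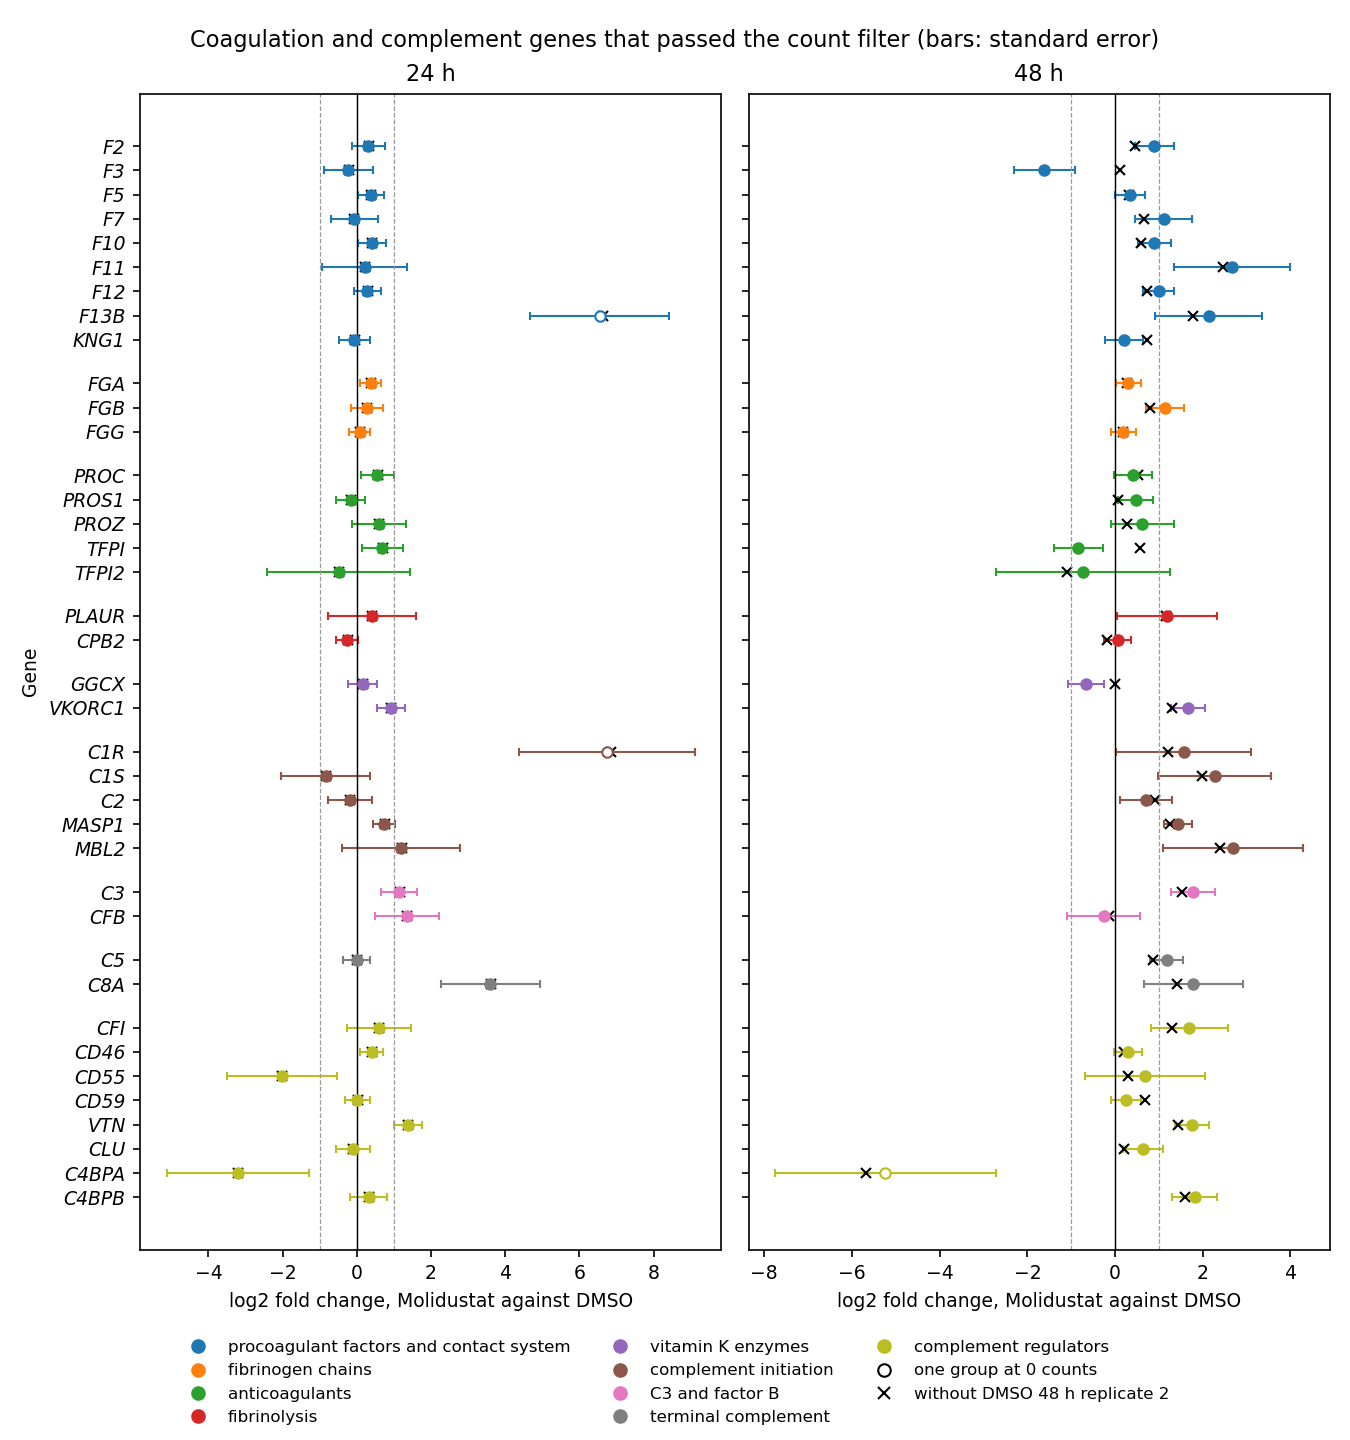
Log2 fold change of Molidustat against DMSO at 24 h (left) and 48 h (right) for the 38 genes that passed the filter, coloured by role, with standard errors. Crosses are the same values without DMSO 48 h replicate 2, dashed lines mark the threshold of 1, and open circles are genes with 0 counts in all libraries of 1 group, whose fitted value is no estimate of size. At 48 h 32 of 38 circles lie right of zero, and the crosses of F3, TFPI and CPB2 lie on the other side of zero from their circles.

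VTN rose at both times when DMSO 48 h replicate 2 was left out, the only one of the 51 called at both. It encodes vitronectin, a hepatocyte-made plasma protein that keeps the membrane attack complex out of membranes and binds integrins. VTN (ENSG00000109072, chr17:28367284-28373091 of GRCh38, minus strand) stood at 207, 143 and 179 CPM in the DMSO 24 h libraries and at 431, 613 and 333 CPM in Molidustat 24 h. At 48 h the DMSO libraries held 235, 101 and 254 CPM, the 101 being replicate 2, and the Molidustat libraries held 715, 531 and 747 CPM. Every Molidustat library was above every DMSO library of either time. The log2 fold change was 1.38 ± 0.38 (SE) at 24 h (edgeR adjusted p = 0.298) and 1.75 ± 0.38 at 48 h (adjusted p = 0.0914). Without DMSO 48 h replicate 2 it was 1.39 ± 0.26 (adjusted p = 0.0102) and 1.43 ± 0.30 (adjusted p = 0.0438). A fit of the 6 libraries of 24 h alone, which also leaves that library out, gave 1.39 ± 0.30 and no call (adjusted p = 0.0655). The VTN locus overlaps SARM1 on the opposite strand and a same-strand read-through gene, and the strand setting of the counting is not given in the sources used here.

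The vitamin K enzymes are VKORC1, the epoxide reductase that recycles vitamin K and is the target of warfarin, and GGCX, the carboxylase that uses it. VKORC1 (ENSG00000167397, chr16:31090842-31095980, minus strand) stood at 111, 106 and 116 CPM in DMSO and 185, 216 and 227 CPM in Molidustat at 24 h. At 48 h the values were 94.9, 31.9 and 103 CPM in DMSO and 187, 308 and 246 CPM in Molidustat. The groups did not overlap at either time, and DMSO 48 h replicate 2 was again the lowest library. The log2 fold change was 0.91 ± 0.37 at 24 h (edgeR adjusted p = 0.865) and 1.66 ± 0.38 at 48 h (adjusted p = 0.107). Without DMSO 48 h replicate 2 it was 0.93 ± 0.23 (adjusted p = 0.0906) and 1.31 ± 0.27 (adjusted p = 0.0438). A same-strand protein-coding gene overlaps VKORC1. Reads that could not be assigned to a single gene, 1.2 to 2.6% of a library, stand on a separate line that was kept out of the counts. How many of them fell on VKORC1 is not known. GGCX was not called at either time. Its 3 Molidustat 48 h libraries held 44.04, 71.2 and 49.2 CPM and its DMSO 48 h libraries 48.7, 155 and 60.1 CPM, and its log2 fold change of -0.66 with all libraries was -0.01 without the 155 CPM library.

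Because HIF binds the letters ACGTG or GCGTG in many of its targets, the promoter windows in RefSeq (GRCh38.p14, 250 bases before to 50 after a start) were searched for both on either strand. Of the 51 genes, 44 had a window, and 33.9% of their 59 windows held at least 1 of these letter runs, against 48.4% of all 35116 windows. ACGTG was in 13.6% of the 59 and 21.4% of all, and GCGTG in 22.0% and 36.5%. Among the genes called under any setting tried, VKORC1 and MASP1 each held 1, the windows of VTN and C4BPB held none, and C3 had no window. No match was found for F3, F12, F13B and TFPI, which does not show that each had a window. The stretches are shown because they carry the matches of these genes, 5′ to 3′ on the gene's strand with the match in capitals, at chr16:31094935-31094955 for VKORC1 (ACGTG read on the other strand, starting 150 bases before the RefSeq start) and chr3:187291777-187291797 for MASP1 (GCGTG, starting 52 bases before).
VKORC1: cgattccgCACGTcccttacc
MASP1: aggggaagGCGTGacctgaat
Both lie within the longer gene spans of GENCODE, upstream of the RefSeq start. A match describes the letters only.

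**Figure D2:**
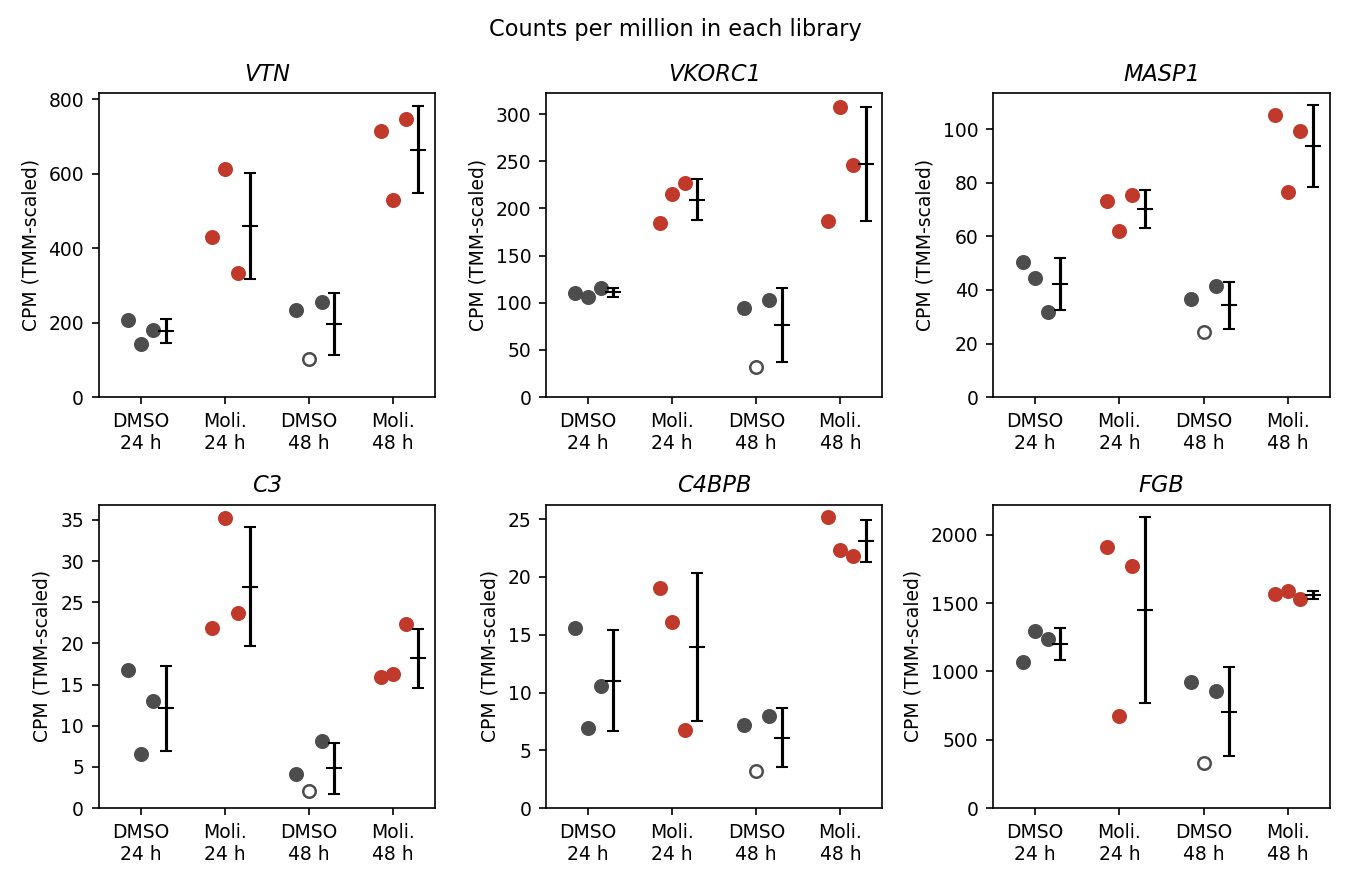
CPM of VTN, VKORC1, MASP1, C3, C4BPB and FGB in each of the 12 libraries (points), with the mean and SD of each group (bars, n = 3); grey is DMSO, red is Molidustat and the open circle is DMSO 48 h replicate 2. At 48 h all 3 Molidustat libraries lie above all 3 DMSO libraries in each of the 6 genes, and the open circle is the lowest DMSO 48 h value in each.

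The genes that start complement were led by MASP1, a protease that activates the lectin pathway. MASP1 (ENSG00000127241, chr3:187217282-187291980, minus strand) held 50.5, 44.3 and 31.8 CPM in DMSO and 73.1, 62.0 and 75.6 CPM in Molidustat at 24 h. At 48 h it held 36.5, 24.5 and 41.6 CPM in DMSO and 105, 76.4 and 99.4 CPM in Molidustat, with no overlap at either time. The log2 fold change was 0.73 ± 0.31 at 24 h (edgeR adjusted p = 0.872) and 1.43 ± 0.31 at 48 h (adjusted p = 0.0914), and 1.25 ± 0.30 at 48 h without DMSO 48 h replicate 2 (adjusted p = 0.0915). MBL2, the mannose-binding lectin that MASP1 attaches to, gave 14, 0 and 0 counts in DMSO 48 h and 17, 18 and 20 in Molidustat 48 h. The locus of C1S, a protease of the classical pathway, overlaps a protein-coding gene and a pseudogene on the same strand, and LPCAT3 on the opposite strand. C1S gave 1, 0 and 17 counts in DMSO 48 h and 16, 7 and 27 in Molidustat 48 h. It stood at 0.631 ± 0.977 against 3.89 ± 1.07 CPM. Its partner C1R had 0 counts in all DMSO 24 h libraries and 0, 48 and 11 in Molidustat 24 h, at least 10.4-fold higher when the DMSO group is set to a floor of 3 counts over its 3 libraries, or at least 4.16-fold without the Molidustat library of 48 counts. These last genes rest on few counts, and none was called by edgeR.

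C3, the protein on which all complement pathways meet, was low but separated at both times. C3 (ENSG00000125730, chr19:6677704-6730562, minus strand, overlapping GPR108 on the same strand) held 16.8, 6.55 and 13.01 CPM in DMSO and 21.9, 35.2 and 23.7 CPM in Molidustat at 24 h. At 48 h the values were 4.20, 2.13 and 8.16 CPM in DMSO and 16.0, 16.3 and 22.4 CPM in Molidustat. The log2 fold change was 1.142 ± 0.48 at 24 h (edgeR adjusted p = 0.872) and 1.78 ± 0.51 at 48 h (adjusted p = 0.198). Without DMSO 48 h replicate 2 the 48 h value was 1.54 ± 0.50 (adjusted p = 0.386). DESeq2 on all libraries called it at 48 h with an adjusted p of 0.0371. Factor B (CFB), the protease partner of C3 in the alternative pathway, stood at 7.15 ± 1.41 CPM in DMSO 48 h and 5.89 ± 1.52 CPM in Molidustat 48 h, groups that overlap.

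Of the terminal complement genes, C5 and C8A passed the filter. C5, whose cleavage starts pore assembly and whose locus overlaps CNTRL on the opposite strand, held 42.8, 17.0 and 45.2 CPM in DMSO 48 h and 71.0, 75.5 and 97.7 CPM in Molidustat 48 h. Its log2 fold change was 1.18 ± 0.37 at 48 h (edgeR adjusted p = 0.208), 0.88 ± 0.32 without DMSO 48 h replicate 2 (adjusted p = 0.524), and -0.00 at 24 h, where both groups averaged 51 CPM (51.1 ± 15.6 and 51.2 ± 7.02). With all libraries C5 was the only one of the 38 genes whose responses at the 2 times differed at an unadjusted p under 0.05 (log2 difference 1.18 ± 0.52, edgeR adjusted p = 0.728), where 1.18% of all genes tested were higher and 5.6% lower. When DMSO 48 h replicate 2 was left out that gene was F13B, on the lower side, where 1.24% of all genes were higher and 1.95% lower. C8A, a pore subunit, gave 1, 2 and 0 counts in DMSO 24 h and 18, 7 and 22 in Molidustat 24 h, with no overlap. Its log2 fold change was 3.60 ± 1.34 (edgeR adjusted p = 0.736), and ran from 2.93 to 4.80 with 1 library left out at a time. At 48 h C8A gave 10, 0 and 27 counts in DMSO and 34, 16 and 13 in Molidustat.

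Among the complement regulators, VTN apart, C4BPB and CFI separated without overlap at 48 h, and edgeR called neither. C4BPB and C4BPA encode chains of the soluble C4b-binding protein. C4BPB, the β chain (ENSG00000123843, chr1:207088860-207099993, plus strand), held 7.18, 3.19 and 7.96 CPM in DMSO 48 h and 25.2, 22.3 and 21.8 CPM in Molidustat 48 h. Its log2 fold change was 1.82 ± 0.51 (edgeR adjusted p = 0.193), 1.59 ± 0.52 without DMSO 48 h replicate 2 (adjusted p = 0.390), and 0.32 ± 0.50 at 24 h, where the groups overlap. C4BPA, the α chain, had 0, 0 and 23 counts in DMSO 48 h and 0 in all Molidustat 48 h libraries, at least 3.20-fold lower against the floor of 3 counts over the group. That value rests on a single DMSO library. CFI, the protease that inactivates C3b and whose locus overlaps a same-strand protein-coding gene, stood at 3.59 ± 3.22 CPM in DMSO 48 h and 13.3 ± 3.46 CPM in Molidustat 48 h without overlap (log2 fold change 1.69 ± 0.88, adjusted p = 0.437).

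The membrane regulators gave smaller values or were barely detected. CD59, which blocks pore assembly and whose locus also overlaps a same-strand protein-coding gene, held 95.2, 192 and 83.7 CPM in DMSO 48 h and 138, 140.3 and 157 CPM in Molidustat 48 h. The fitted log2 fold change was 0.25 ± 0.34 with all libraries and 0.69 ± 0.28 without the 192 CPM library (edgeR adjusted p = 0.625). CD46, a cofactor for C3b inactivation, stood at 125 ± 18.1 CPM in DMSO 48 h and 154 ± 34.2 CPM in Molidustat 48 h. CD55, which dissociates the C3 convertases, gave 3, 2 and 18 counts in DMSO 24 h and 1, 4 and 2 in Molidustat 24 h, the 1 gene of the 38 whose Molidustat CPM lay wholly below DMSO at that time. At 48 h it gave 19, 0 and 11 counts in DMSO and 2, 0 and 33 in Molidustat, which overlap. CLU, the secreted chaperone clusterin that also binds terminal complement, held 774, 184 and 935 CPM in DMSO 48 h and 995, 929.6 and 1049 CPM in Molidustat 48 h. Without the 184 CPM library the log2 fold change of 0.65 became 0.20.

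Fibrinogen is built from 3 chains encoded side by side on chromosome 4, and they did not give equal values. FGB, the β chain (ENSG00000171564, chr4:154563011-154572807, plus strand), held 1070.0, 1297 and 1238 CPM in DMSO 24 h and 1911, 671 and 1774 CPM in Molidustat 24 h, so 1 Molidustat library lay below the DMSO group. At 48 h it held 923, 330.0 and 861 CPM in DMSO and 1565, 1585 and 1528 CPM in Molidustat, without overlap. The 48 h log2 fold change was 1.144 ± 0.44 (edgeR adjusted p = 0.266), and 0.79 ± 0.32 without DMSO 48 h replicate 2 (adjusted p = 0.640). FGA, the α chain, stood at 223 ± 8.03 CPM in DMSO 48 h and 275 ± 13.1 CPM in Molidustat 48 h (log2 fold change 0.30 ± 0.29). FGG, the γ chain, stood at 1320.4 ± 30.0 and 1503 ± 104 CPM (0.19 ± 0.29). Both also separated without overlap at 48 h, by less than the threshold.

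The procoagulant factors gave positive values at 48 h in 8 of the 9 that passed the filter, with a median log2 fold change of 0.90, or in 9 of 9 with a median of 0.65 without DMSO 48 h replicate 2. Prothrombin (F2), the zymogen of thrombin, held 104, 17.0 and 82.8 CPM in DMSO 48 h and 130.1, 94.4 and 164 CPM in Molidustat 48 h. The log2 fold change of 0.90 ± 0.45 (edgeR adjusted p = 0.414) became 0.46 ± 0.28 without the 17.0 CPM library (adjusted p = 0.870). F10, which cuts prothrombin, stood at 68.7 ± 30.4 and 130 ± 20.7 CPM at 48 h (0.90 ± 0.37), and F12, the first protease of the contact system, at 45.1 ± 16.9 and 91.4 ± 21.0 CPM (0.99 ± 0.36). Their adjusted p were 0.310 and 0.241 with all libraries, and 0.810 and 0.689 without DMSO 48 h replicate 2.

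Factor XI and the B subunit of factor XIII rest on few counts. F11, a contact-phase protease, gave 1, 0 and 7 counts in DMSO 48 h and 10, 8 and 11 in Molidustat 48 h. Its log2 fold change of 2.67 ± 1.31 had an edgeR adjusted p of 0.402, and ran from 2.2 to 4.19 with 1 library left out at a time. F13B, which carries the fibrin cross-linking enzyme in plasma, had 0 counts in all DMSO 24 h libraries and 6, 22 and 12 in Molidustat 24 h. That is 2.38 ± 0.266 CPM and at least 9.34-fold higher, again against 3 counts over the DMSO group. At 48 h DMSO gave 20, 0 and 2 counts and Molidustat 42, 9 and 10, which overlap. The edgeR adjusted p of F13B at 24 h was 0.359.

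In F3, TFPI, KNG1 and GGCX, as in CD59 and CFB, DMSO 48 h replicate 2 was the highest of the 12 libraries in TMM-scaled CPM. The 48 h values of the first 4 differed most plainly with and without it. KNG1 owes that rank to the low TMM factor of 0.629. It had 158 of 1492580 counts on filtered genes in that library, and 589 of 4232780 in Molidustat 48 h replicate 1. The ranks of CD59 and CFB were not tested without that factor. Tissue factor (F3), the membrane receptor that starts coagulation, held 12.6, 164 and 26.1 CPM in DMSO 48 h and 31.2, 19.7 and 12.4 CPM in Molidustat 48 h. Its log2 fold change was -1.61 ± 0.69 with all libraries (edgeR adjusted p = 0.323) and 0.11 ± 0.43 without the 164 CPM library. TFPI, the inhibitor of the tissue factor complex, held 614, 3539.9 and 561 CPM in DMSO 48 h and 1023, 689 and 926 CPM in Molidustat 48 h. Its log2 fold change was -0.84 ± 0.56 with all libraries (adjusted p = 0.574), and 0.57 ± 0.27 without the 3539.9 CPM library (adjusted p = 0.757). At 24 h TFPI did not overlap, at 369 ± 40.8 CPM in DMSO and 593 ± 155 CPM in Molidustat (0.68 ± 0.55, adjusted p = 0.999). KNG1, the kininogen of the contact system, held 70.6, 168 and 67.3 CPM in DMSO 48 h and 132, 123 and 92.1 CPM in Molidustat 48 h, and its log2 fold change of 0.20 became 0.73. GGCX is given above.

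**Figure D3:**
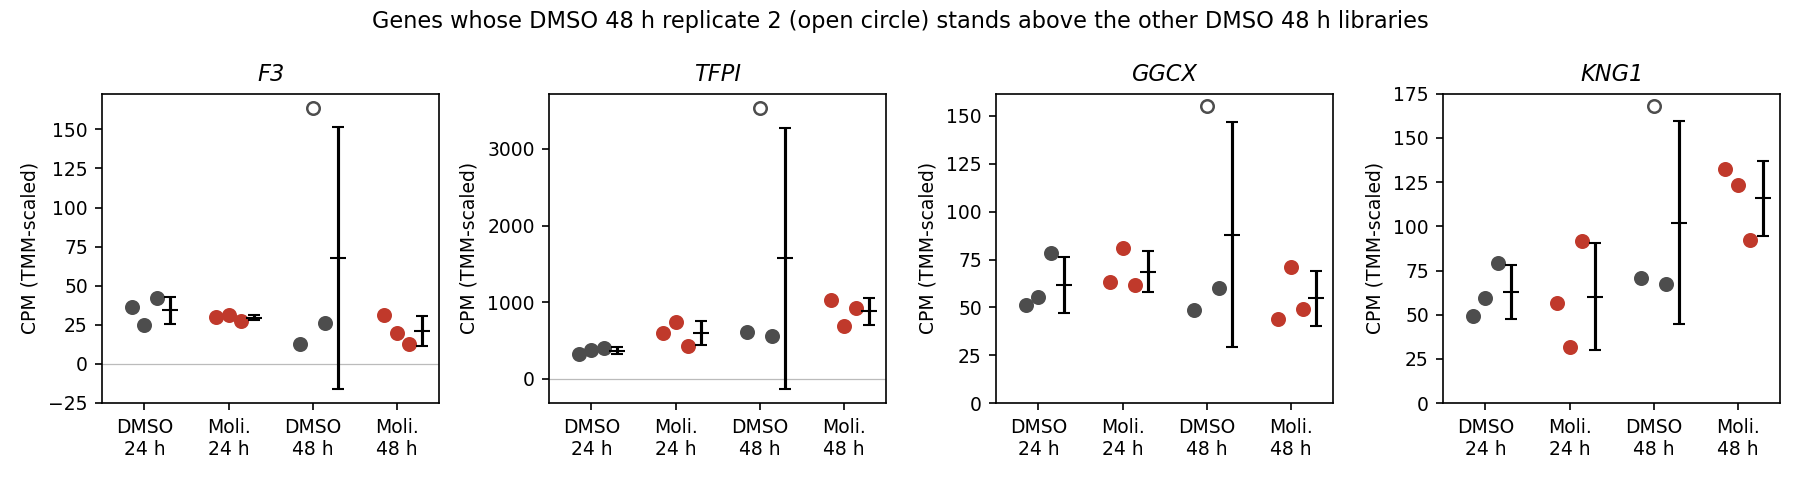
CPM of F3, TFPI, GGCX and KNG1 in each of the 12 libraries (points), with the mean and SD of each group (bars, n = 3; where the SD exceeds the mean the bar reaches below zero). In TMM-scaled CPM the open circle, DMSO 48 h replicate 2, stands above all 11 other libraries in each gene, at 164, 3539.9, 155 and 168 CPM.

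**Figure D4:**
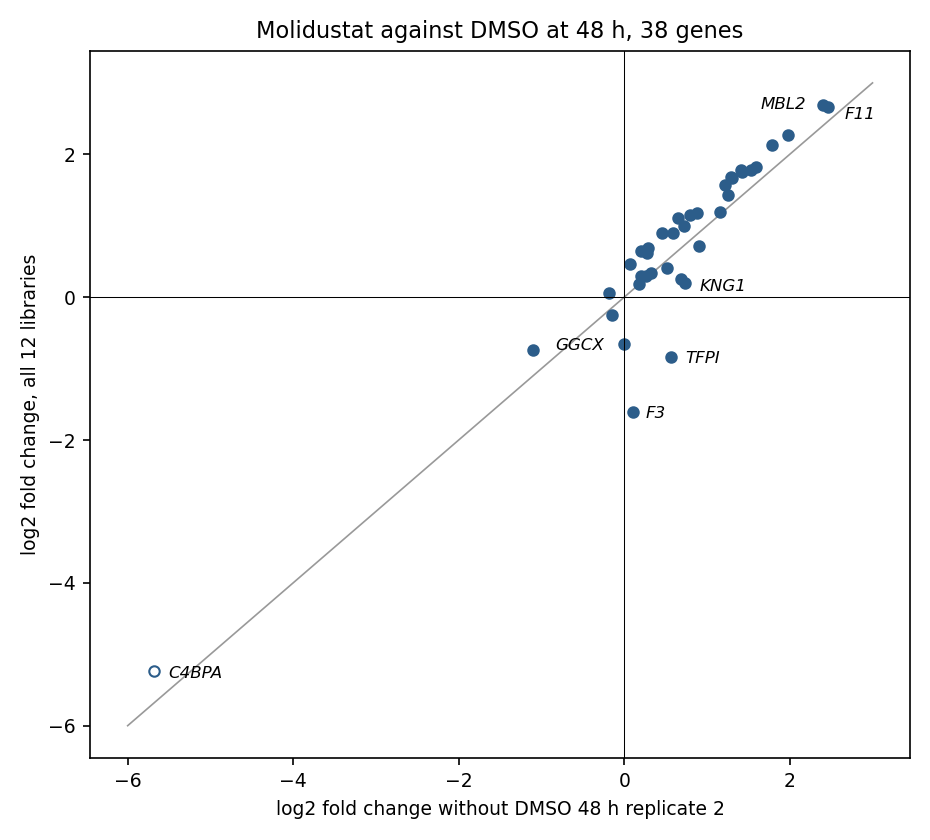
Log2 fold change of Molidustat against DMSO at 48 h for 38 genes, with all 12 libraries (vertical axis) against the fit without DMSO 48 h replicate 2 (horizontal axis); the line marks equal values and the open circle is C4BPA, at 0 counts in Molidustat 48 h. Of the 38 genes 30 lie above the line, while F3, TFPI, GGCX and KNG1 are among the 8 below it.

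The remaining anticoagulants and fibrinolysis genes showed no called difference. Protein S (PROS1), the cofactor of activated protein C, stood at 83.4 ± 52.6 CPM in DMSO 48 h and 117 ± 1.46 CPM in Molidustat 48 h, and its log2 fold change of 0.47 became 0.07 without DMSO 48 h replicate 2. Protein C (PROC) stood at 23.2 ± 4.71 and 30.3 ± 8.79 CPM. CPB2, the carboxypeptidase that slows fibrinolysis, stood at 92.5 ± 29.4 and 97.3 ± 10.1 CPM at 48 h, a log2 fold change of 0.06 ± 0.31 that turned to -0.18 ± 0.26 without DMSO 48 h replicate 2. PLAUR, the urokinase receptor, gave 33, 3 and 22 counts in DMSO 48 h and 22, 12 and 67 in Molidustat 48 h (3.31 ± 1.10 and 7.56 ± 4.36 CPM, edgeR adjusted p = 0.727). Its ligand urokinase (PLAU) gave 17, 0 and 6 counts in DMSO 48 h and 0, 0 and 8 in Molidustat 48 h.

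Between 48 h and 24 h none of the 51 genes was called in edgeR in either treatment, with or without DMSO 48 h replicate 2 (with all libraries 0 genes were called higher and 1 lower of 14274 in DMSO, 0.00701%, and 0 in Molidustat; without that library 0.0131% lower in DMSO, and 0.0131% higher and 0.0131% lower in Molidustat). In Molidustat, 5 genes were higher at 48 h at an unadjusted p under 0.05 and 0 lower, where 2.39% and 2.19% of all genes were. These 5 were F10, F12, KNG1, FGG and CPB2. F12 held 38.7, 34.0 and 38.3 CPM in Molidustat 24 h and 115, 75.9 and 82.9 CPM in Molidustat 48 h (log2 fold change 1.31 ± 0.36, edgeR adjusted p = 0.953, and 0.140 without DMSO 48 h replicate 2). In DMSO it held 41.6, 27.7 and 21.7 CPM at 24 h and 55.7, 25.6 and 53.9 CPM at 48 h. The Molidustat 48 h libraries lay above the Molidustat 24 h libraries in 14 of 38 genes and below in 0 (7.15% and 6.79% of all genes). The DMSO 48 h libraries lay above the DMSO 24 h libraries in 5 of 38 and below in 2 (5.75% and 6.19%), or in 13 and 2 of 40 without DMSO 48 h replicate 2 (13.4% and 9.49%). In DMSO, 4 genes were higher and 2 lower at an unadjusted p under 0.05 (6.76% and 1.38% of all genes), and TFPI among them had a log2 fold change of 2.09 ± 0.57 (edgeR adjusted p = 0.541), or 0.70 ± 0.26 without DMSO 48 h replicate 2. Without that library 9 genes were higher and 0 lower in DMSO (2.89% and 1.13% of all genes), and 9 and 0 in Molidustat (4.38% and 4.86%). DESeq2 on all libraries called TFPI higher in DMSO and none of the 51 in Molidustat (0.123% of genes higher and 0.0281% lower in DMSO, 0.0246% and 0.0176% in Molidustat). These comparisons use the same libraries as those of Molidustat against DMSO. In the test of the response at 48 h against that at 24 h, edgeR called 0 of 14274 genes.

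Of the serpins of these cascades, left out of the 51, SERPINA1 and SERPINC1 are given here. SERPINA1, the elastase inhibitor α1-antitrypsin, held 728 ± 34.9 CPM in DMSO 24 h, 1611 ± 451 in Molidustat 24 h, 841 ± 343 in DMSO 48 h and 2436 ± 237 in Molidustat 48 h. It was called at both times without DMSO 48 h replicate 2 (log2 fold change 1.16 and 1.23, edgeR adjusted p = 0.0149 and 0.0474) and at neither with all libraries (1.15 and 1.53, adjusted p = 0.475 and 0.135). Antithrombin (SERPINC1) was not called (log2 fold change -0.63 at 24 h, 0.15 at 48 h).

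Among 20 further coagulation and fibrinolysis genes, 14 passed the filter and 0 were called with all libraries. ENO1, a glycolytic enolase that also serves as a plasminogen receptor, held 665 ± 129 CPM in DMSO 24 h, 2021 ± 341 in Molidustat 24 h, 625 ± 178 in DMSO 48 h and 1815 ± 191 in Molidustat 48 h. It was called without DMSO 48 h replicate 2 at both times (log2 fold change 1.62 and 1.30, edgeR adjusted p = 0.000434 and 0.0225), the only one of the 16 that then passed. S100A10, which binds plasminogen with annexin A2, stood at 118 ± 52.4 CPM in DMSO 48 h and 267 ± 69.9 CPM in Molidustat 48 h (adjusted p = 0.211). Of 29 further complement genes, 7 passed and 17 had no count in any library. None of the 7 was called, among them C1QBP, a protein that binds the globular heads of C1q (log2 fold change -0.30 and -0.35, the latter -0.64 without DMSO 48 h replicate 2, edgeR adjusted p = 0.664, where Molidustat lay wholly below DMSO).

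Other measures moved with these results. The 8 hepatocyte markers, of which AFP gave the most counts, summed to 11187 to 14060.3 CPM in DMSO 24 h, 16108 to 20594 in Molidustat 24 h, 15342 and 15598.5 in DMSO 48 h replicates 3 and 1, 8431 in replicate 2 and 21472 to 26176 in Molidustat 48 h. At 48 h 6 of the 8 had a positive log2 fold change with all libraries, and 6 without replicate 2. The other two were HNF4A, a transcription factor of hepatocyte identity, and APOB, the protein of very low density lipoprotein. HNF4A held 70.5, 1237 and 209 CPM in DMSO 48 h and 156, 145 and 108 CPM in Molidustat 48 h, a log2 fold change of -1.88 with all libraries (edgeR adjusted p = 0.337) and -0.05 without the 1237 CPM library. APOB held 1147, 864 and 1672 CPM in DMSO 48 h and 908, 888 and 886 CPM in Molidustat 48 h, a log2 fold change of -0.46, or -0.67 without replicate 2 (adjusted p = 0.528), where it lay wholly below DMSO. Of these markers TF, transferrin, was called higher at both times without DMSO 48 h replicate 2 (log2 fold change 1.27 and 1.11, edgeR adjusted p = 0.00163 and 0.0351). The part of these levels in the values of the coagulation and complement genes was not tested, and in bulk samples more cells of a kind and more RNA per cell cannot be told apart. Of the leukocyte markers PTPRC and CD163 were at or near 0, and LYZ, which gave nearly all counts of that list, stood at 123 ± 19.4 CPM in DMSO 48 h and 54.3 ± 15.7 CPM in Molidustat 48 h. CD14, of the same list, lay the other way without overlap, at 2.30, 0 and 2.997 CPM in DMSO 48 h and 7.42, 9.01 and 10.3 CPM in Molidustat 48 h (log2 fold change 2.11, edgeR adjusted p = 0.381). The endothelial markers summed to at most 6.5 CPM in a library. The 5 stellate and fibroblast markers, with LUM the most abundant and ACTA2 at 0 throughout, summed to 5.6, 0 and 3.2 CPM in DMSO 48 h and 16.2, 10.7 and 7.1 CPM in Molidustat 48 h without overlap, and to 1.2 to 6.9 CPM in DMSO 24 h and 0 to 2.3 CPM in Molidustat 24 h. None of these 5 was called (LUM at 48 h, log2 fold change 2.172, edgeR adjusted p = 0.469), and the part of the leukocyte, endothelial and stellate markers in the values above was not tested.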

How the data were processed

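RNA from 12 Huh7 libraries was prepared by the study with a QIAseq UPX 3′ kit and sequenced on a NextSeq 500. The authors trimmed reads with cutadapt 1.9.1, aligned them with STAR 2.7.9a to GRCh38 and deposited raw counts per gene from HTSeq 0.11.2, without normalization. bcl2fastq 2.17.1.14 and DESeq2 1.26.0 also stand in the submitters' processing notes. The annotation release, the strand setting and any use of molecular identifiers are not given in the sources used here. Names and GRCh38 coordinates came from GENCODE 44 (60437 of 60666 identifiers matched), and 5 summary lines were kept out of library sizes. No column was left out (0). Between 7.08 and 10.4% of reads had no unique alignment. The series record speaks of triplicate extractions and the paper of biological replicates, so p-values measure the spread between these libraries, which may be partly technical. Replicates differed by more than sampling noise.

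Counts were fitted in R 4.3.3 with edgeR 4.0.16 (filterByExpr, minimum count 10, minimum total 15; TMM; quasi-likelihood test on all 12 libraries), with p-values adjusted by the Benjamini-Hochberg method. DESeq2 1.42.0, limma 3.58.1 (voom with sample quality weights), other scalings and filters, a replicate block and each library left out were alternatives. On simulated counts with 200 of 14274 genes changed by 2 (log2), edgeR recovered 99 in the 24 h and 101 in the 48 h comparison, with 10 and 1 false calls. DESeq2 recovered 107 and 108 with 28 and 31 false calls, and limma-voom 75 and 81 with 4 and 4. The simulation gave genes of like expression the same spread and made no library stand apart as DMSO 48 h replicate 2 does. Its numbers therefore do not give the power of the 48 h comparison in these data. Floors cover counting error only. Figures were drawn with matplotlib 3.10.9.

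The genes and lists were chosen with earlier results of these data known. Named genes were those called in any comparison, at each time the 8 largest changes where groups did not overlap, the most abundant of each role, and F3, PLAU, PLAUR, C3, CD55 and CD59. Others were named after their values were seen. Some genes of the wider lists are not reported here.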

Additional observations from a re-analysis of the deposited data

How the results depend on the processing

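With edgeR, its filter on low counts and all 12 libraries, 0 of the 51 genes were called in any comparison. That held with RLE factors, total counts and a minimum of 10 counts in every library. Total counts moved the median of all genes at 48 h from 0.01 to 0.13, and in DMSO 48 h against 24 h to -0.13. Higher at 24 h were 1 gene (VTN) with DESeq2, 1 with limma-voom (0.448% of all genes), and without DMSO 48 h replicate 2 also 2 with DESeq2 (VTN and F13B) and 1 with limma-voom (0.583%). Higher at 48 h were 3 without the filter on low counts (0.542% of all genes), 5 with DESeq2 (0.609%), 5 with limma-voom (1.71%), and without DMSO 48 h replicate 2 also 3 with DESeq2 (0.535%) and 4 with limma-voom (1.22%); all of these hold VTN, VKORC1 and MASP1. Lower at 48 h was 1 without the filter (F3), a fit that called 2.15% of all genes lower. In DMSO 48 h against 24 h, 1 was higher (TFPI) without the filter (1.36% of all genes) and 1 with DESeq2 (0.123%), and in Molidustat 48 h against 24 h 1 (F12) with DESeq2 without DMSO 48 h replicate 2 (0.163%). Leaving out 1 library at a time gave 0 to 1 calls at 24 h, 0 to 2 at 48 h, and 0 elsewhere. VTN at 24 h was called in 1 of 12 such fits, without DMSO 48 h replicate 2, but not when the 6 libraries of 24 h were fitted alone (adjusted p = 0.0655, 0.441% of all genes called higher), nor at 48 h alone (adjusted p = 0.485, 0.0535%). VTN and VKORC1 at 48 h were called in 3 of 12, without any 1 of the DMSO 48 h libraries. Those fits called 0.368% of all genes higher and 1.82% lower without replicate 1, 0.315% and 0.0328% without replicate 2, and 0.308% and 1.02% without replicate 3.

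The libraries showed no sign of pairing by replicate number, which does not settle whether those of 1 number were handled together. Deviations of same-numbered libraries correlated at -0.12 to 0.16 and of others at -0.19 to 0.18. With a replicate block 0 of the 51 genes were called in any comparison (0.21% of all genes higher at 24 h and 0.154% at 48 h), and 1 (VTN at 24 h, where 0.564% of all genes were higher) with the block and without DMSO 48 h replicate 2. Under the block CD55 at 48 h turned to -0.12 (-0.55 without that library), C5 at 24 h to 0.0585 (0.0378), and without that library TFPI to 0.55, CPB2 to -0.21 and F3 to 0.17 at 48 h.

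Over 42 log2 fold changes and 983 alternatives, 909 kept direction and gained no call, 34 gained a call and 40 turned direction. None of the 42 was called with edgeR, its filter and all libraries, so no call could be lost. The turned values without DMSO 48 h replicate 2 at 48 h were TFPI 0.61 (DESeq2) and 0.57 (limma-voom), CPB2 -0.14 and -0.15, F3 0.15 (DESeq2) and CD55 -0.215 (limma-voom). With limma-voom on all libraries they were TFPI 0.42 and CPB2 -0.11. C5 at 24 h, near zero throughout, was 0.0095 with RLE factors, 0.0088 with DESeq2 and with limma-voom, 0.0129 with that time alone, 0.0206 without the filter, 0.0221 with limma-voom without DMSO 48 h replicate 2, and 0.0372 with 10 counts in every library. CD59 at 24 h was -0.0262 with total counts. Leaving out 1 library gave -2.34 to 1.55 for CD55, -1.19 to 0.57 for TFPI, -0.18 to 0.20 for CPB2 and -2.09 to 0.11 for F3 at 48 h, and -0.34 to 1.35 for F11, -0.23 to 0.15 for C5, -0.32 to 0.11 for CLU, -0.12 to 1.15 for PLAUR and -0.14 to 0.15 for CD59 at 24 h. The cause was not tested, beyond the values of DMSO 48 h replicate 2 for F3 and TFPI. Depth limits the genes with few counts: 3 counts stood for 0.310 to 3.19 CPM by library.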
